A study of Homo sapiens with 3 samples.

Results

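Outside chromosomes 4, 7, 8, 9, 10 and Y, 176 ChIP-seq peaks of DLD-1/DKK-1 cells held at least 30 tags, a tag being an aligned read. They were taken from the union of 2 peak lists, 1 called with DLD-1/Mock and 1 with input as the control, and a peak with the same start and end in both lists was counted once. They made up 4.69% of the 3756 peaks on the same chromosomes, and the lists held 8723 different peaks on all chromosomes. The peaks were chosen by their tag number. Their tags, and the measures that go with tags (width, tags per length, score), are therefore given as a description, with no test.

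DLD-1 is an established human colorectal adenocarcinoma line. DLD-1/DKK-1 cells were transduced with a Tet-On lentiviral vector that expresses V5-tagged DKK-1 together with a green fluorescent reporter in the presence of doxycyclin, and DLD-1/Mock cells were their mock counterpart. The libraries were 1 immunoprecipitate of each cell line and 1 pool of input DNA, with no replicate, and the Methods name a DKK-1 antibody where the sample records name an antibody to the V5 tag. After removal of duplicates they held 21312041 tags (DLD-1/DKK-1), 24151009 tags (DLD-1/Mock) and 27723787 tags (input), and the sources used here do not say whether the cultures used for ChIP received doxycyclin.

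DKK-1 is a secreted inhibitor of the Wnt pathway, and the study asked where the nuclear form of the protein meets chromatin. In ChIP-seq a true binding site gathers tags in the immunoprecipitate and not in its controls. Tags also gather where the reference genome holds fewer copies of a sequence than the cell does, such as satellite and other repeated DNA near centromeres, and there they gather in control libraries too. A mock immunoprecipitate shares the pull-down with the specific one, whereas input DNA does not, so the pair of controls can differ at the same place. The question put to the tag-rich peaks here was whether the mock library removed peaks that input left in place, and where such peaks lay.

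Many of the peaks stood just above the limit. Tags ranged from 30 to 1859 with a median of 40 (quartiles 32.8 and 58.3), and 87 of the 176 peaks held 30 to 39 tags. At 30 tags the 95% Poisson interval was 20.2 to 42.8 tags, so membership near the limit lay within counting error. The 19 peaks with exactly 30 tags had a median width of 799 bp and 3.75 tags per 100 bp. The 18 peaks with 29 tags, just outside, had a median width of 864.5 bp and 3.35 tags per 100 bp. Peaks on either side of the limit were thus much alike, and the tags were unequally shared above it. In all, the 176 peaks held 16799 of the 74127 tags in peaks of these chromosomes (22.7%) on 9.87% of the covered length. The 12 peaks with the most tags held 7920, or 47.1% of the tags of the 176.

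Width and tag density separated kinds of peak that the tag number alone did not. Width ranged from 379 to 5101 bp with a median of 936.5 bp, and 70 peaks (39.8%) were wider than 1000 bp, against 1 of the 3580 peaks under 30 tags (0.0279%). The density ranged from 2.77 to 127 tags per 100 bp with a median of 4.03 (quartiles 3.61 and 5.38), against a median of 3.39 and a maximum of 8.65 in peaks under 30 tags. Peaks of ordinary density therefore made up most of the set, and the densest peaks, whatever their width, most of its tags. Below 5 tags per 100 bp there were 128 peaks, with a median width of 963 bp and 30.9% of the tags. Between 5 and 10 there were 22 peaks. At 10 or more tags per 100 bp there were 26 peaks, with a median width of 711.5 bp, 48 to 1859 tags each and 59.9% of the tags, and 6 of them were wider than 1000 bp and held 4411 of their 10060 tags. The limits of 5 and 10 were set with the values in view. Across the 176 peaks, Spearman's rho of tags with width was 0.32 and that of tags with density 0.64, which are descriptions, since density is tags over width and all points come from 1 library.

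**Figure D1:**
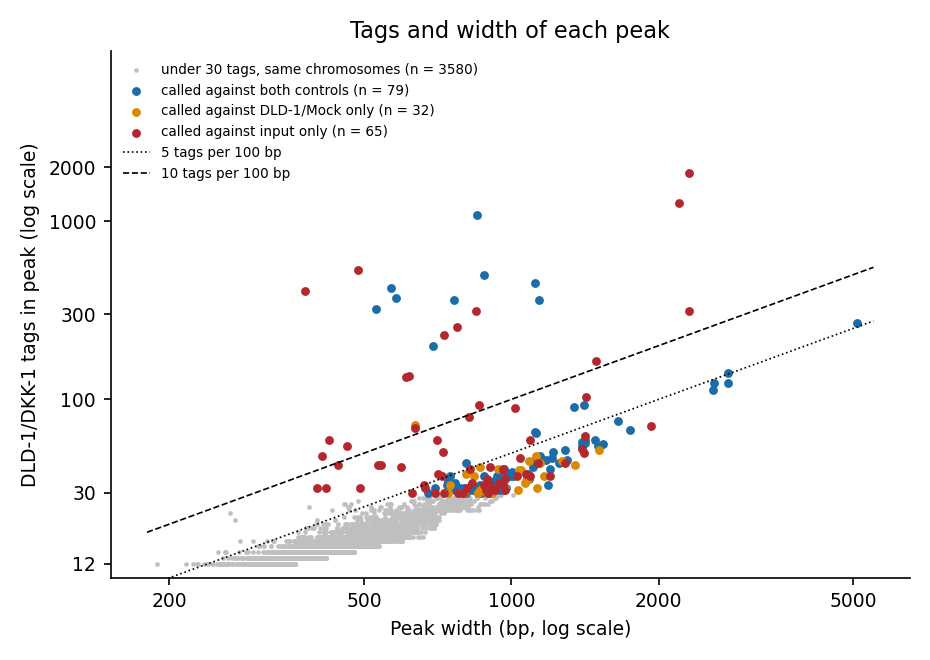
Each point is a peak, with its width in bp on the x axis and its DLD-1/DKK-1 tags on the y axis (both log scales). Grey points are the 3580 peaks under 30 tags, coloured points the 176 peaks by the control against which they were called, and the lines mark 5 and 10 tags per 100 bp. Most coloured points continue the grey band below 5 tags per 100 bp, and 26 lie on or above the dashed line.

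A peak was listed against a control when its tags exceeded the local background of that control with P under 1e-05. Of the 176 peaks, 79 (44.9%, 95% Wilson interval 37.7% to 52.3%) were called against both controls, whereas over all 8723 peaks the share was 36.6%. Another 65 (36.9%, interval 30.2% to 44.3%) were called against input and removed by DLD-1/Mock. The remaining 32 (18.2%, interval 13.2% to 24.5%) were called against DLD-1/Mock and removed by input. The intervals describe the list and not any variation between immunoprecipitations. In peaks under 30 tags on the same chromosomes the 3 shares were 35.6%, 29.4% and 35.0%, and in the 440 tag-rich peaks of chromosomes 4 and 7 to 10 they were 60.0%, 9.09% and 30.9%. Removal by mock was thus the second most frequent outcome here and the least frequent on those 5 chromosomes, a difference that was not tested, since peaks of 1 library are not replicates.

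Fold enrichment, the height of the summit over the local background, was modest at these peaks. In the DLD-1/Mock list it ranged from 2.74 to 12.83 (median 6.09, 111 peaks), and in the input list from 3.34 to 17.9 (median 6.63, 144 peaks). It reached 10 in 5 of the 111 (4.50%) and in 25 of the 144 (17.4%), where the shares over each whole list were 9.12% and 9.6%. The FDR of 100%, which the peak caller gives when exchanging ChIP and control yields at least as many peaks of that score, was reached by 8 of 111 peaks (7.21%) against DLD-1/Mock and 96 of 144 (66.7%) against input, with 0.694% and 20.9% over the whole lists. A fold enrichment of 10 against both controls was reached by 2 of the 79 peaks in both lists. The numbers were 102 of 1274 in peaks under 30 tags on the same chromosomes. In tag-rich peaks of chromosomes 4 and 7 to 10 they were 7 of 264. The 2 peaks were chr12:64323027-64324433 (hg18), with 93 tags and folds of 11.8 and 12.46, and chr3:139856481-139857288, with 44 tags and folds of 10.39 and 14.24. Both are in the authors' list of specific sites, without a gene. That list holds 200 sites over all chromosomes, where the peak lists held 8723 peaks.

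The score and the tags of a peak together give an estimate of the local background that MACS had used, in tags over the peak at the depth of the DLD-1/DKK-1 library. At the tag-rich peaks it came to a median of 1.75 times the genome-wide value in DLD-1/Mock (111 peaks, highest 137) and 2.03 times in input (144 peaks, highest 54.8). These values are not set against peaks under 30 tags, because a peak of few tags is listed only where its background lies near the genome-wide value, which MACS uses as a floor. A background of 1.20 times that value already removes a peak of 15 tags on 448 bp, their median size, whereas the median over the 176 peaks is 2.50 times.

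The ratio of the DLD-1/Mock background to the input background could be given at the 79 peaks in both lists. It ranged from 0.502 to 4.70 with a median of 1.03 (quartiles 0.862 and 1.25), and DLD-1/Mock was higher at 40 peaks and input at 39. The 95% counting interval of the ratio included 1 at 68 peaks, lay above 1 at 10 and below 1 at 1. The exceptions fell mainly in the densest class, where the backgrounds held more tags and the intervals were narrower. An interval that includes 1 does not show equal backgrounds, and none was adjusted for the number of peaks. Peaks at which 1 control was high enough to remove the peak, 97 of the 176, have no ratio and only a bound, so these values describe the peaks that both controls left in place.

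At 10 or more tags per 100 bp the controls differed. Of these 26 peaks, 16 were removed by mock, 9 were called against both controls and 1 was removed by input. In the 9 called against both, the ratio of DLD-1/Mock to input background was 1.97 to 4.70 (median 3.06), and all 9 intervals lay above 1. For the 16 removed by mock, the score limit gives a lower bound of the ratio, which was 1.01 to 3.07 (median 2.01). Such a bound exceeds 1 by construction. Its size is capped too, by the lowest background that removes the peak over the genome-wide value. That cap was 114 at chr11:84872541-84873026 and 1.82 at chr14:51098622-51099820, a peak under 5 tags per 100 bp. The bounds are therefore not set against those of less dense peaks. Input itself was raised there, to a median of 11.9 times the genome-wide background (25 peaks, 3.79 to 54.8), and DLD-1/Mock to 44.4 times (10 peaks, 8.09 to 137). DLD-1/DKK-1 tags were 1.17 to 1.77 times the mock background in these 10 peaks (median 1.33), and 1.43 to 8.09 times the input background in the 25 (median 3.49). In the 9 peaks of both lists, the 2 immunoprecipitates thus lay closer to each other than either lay to input. Their median fold enrichment was 11.03 against input and 3.44 against DLD-1/Mock. A low ratio of tags to background can pass the P value cut-off only where tags are many, so values this close to mock can be listed only at peaks with many tags.

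**Figure D2:**
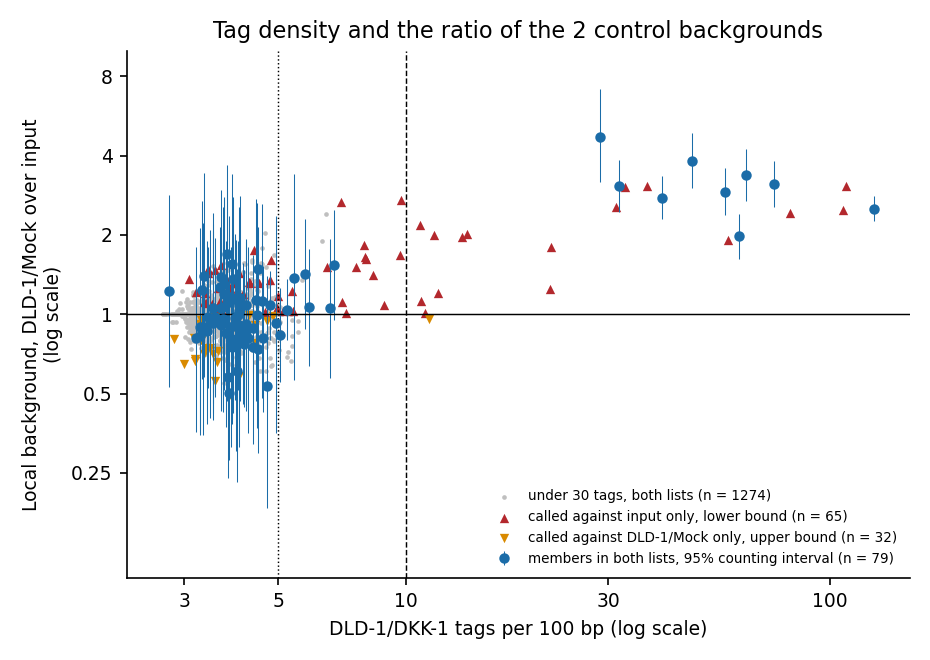
The x axis gives DLD-1/DKK-1 tags per 100 bp of each peak and the y axis the local background of DLD-1/Mock over that of input (both log scales). Circles are the 79 peaks in both lists with 95% counting intervals, upward triangles lower bounds for the 65 peaks removed by mock, downward triangles upper bounds for the 32 removed by input, and grey points the 1274 peaks under 30 tags in both lists, where both backgrounds lie near the floor that MACS sets. The circles scatter around 1 at low density, where the ratio of a peak in both lists is also capped lower. All 9 to the right of the dashed line lie between 1.97 and 4.70.

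Below 5 tags per 100 bp the ratio in the peaks of both lists lay nearer to 1, where it also had less room to depart from 1. In a peak of both lists each background lies between the floor and the lowest background that removes the peak, which caps the ratio. That cap was 1.55 at chr5:78146953-78148143, in this class, and 141 at chr1:91625002-91625851, in the densest class. How much of the difference between the classes follows from this cap was not tested. Of the 128 peaks, 63 were called against both controls, 34 were removed by mock and 31 by input, and the median ratio in the 63 was 0.946 (0.502 to 1.695). The interval included 1 at 61 of them. Few background tags made these intervals wide, such as 0.313 to 2.56 at chr2:239014809-239015577, so they do not show equal controls. The lower bound in the 34 removed by mock was 1.01 to 1.76 (median 1.23), and the upper bound in the 31 removed by input was 0.490 to 0.993 (median 0.813). The former bounds lie above 1 and the latter below 1 by construction, and the 2 kinds of peak were nearly equal in number. Tags were a median of 2.75 times the background against either control. Between 5 and 10 tags per 100 bp, 15 of the 22 peaks were removed by mock, 7 were called against both and 0 were removed by input. The ratio in these 7 was 0.836 to 1.54 (median 1.06), with 1 inside all 7 intervals, and the lower bound in the 15 was 1.01 to 2.73 (median 1.51). The 79 peaks as a whole had a Spearman's rho of 0.29 between density and ratio. It is a description over points that share their 3 libraries and whose ratios are capped lower at low density.

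The 12 peaks with the most tags all belonged to the dense class. The first, chr16:33869674-33871985, held 1859 tags (80.4 per 100 bp) at 7.26 times the input background by fold enrichment and was removed by mock. The next, chr2:132728054-132730254, held 1263 tags (57.4 per 100 bp), had the same fold of 7.26 against input and was likewise removed by mock. The third, chr1:91625002-91625851, was the densest of all 176, with 1081 tags at 127 per 100 bp. It passed against both controls, with folds of 3.13 against DLD-1/Mock and 7.86 against input. Its mock background came to 922 tags and its input background to 367, a ratio of 2.51 (95% counting interval 2.25 to 2.80). Over this stretch of 850 bp the mock library thus came close to the DLD-1/DKK-1 library. At most 2 tags per position were kept, and the effect of that limit on the dense peaks was not tested.

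Among the other 9 of the 12, those removed by mock were short. They were chr11:84872541-84873026, with 530 tags on 486 bp, and chr12:20595513-20595891, with 406 tags on 379 bp, the narrowest of the 176. Their folds against input were 8.09 and 5.36. The mock background had to be at least 3.07 and 2.48 times that of input for mock to remove them.

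The remaining 7 passed against both controls with a higher fold against input than against mock in each case. Folds against mock and input were 3.55 and 10.37 at chr1:154452514-154453393 (497 tags), 2.74 and 8.56 at chr17:30502125-30502693 (419 tags), and 3.47 and 11.71 at chr5:71182229-71182810 (370 tags). They were 2.88 and 11.03 at chrX:108183848-108184610 (361 tags), and 3.41 and 6.73 at chr6:119600149-119600676 (323 tags). These peaks lay on different chromosomes and alone, whereas the last pair of the 7 were neighbours on chromosome 20, 84 bp apart. The pair comprised chr20:26137672-26138787 (448 tags, folds 4.03 and 11.12) and chr20:26136448-26137587 (363 tags, folds 3.72 and 11.38). The background ratio of the 7 peaks was lowest at the chromosome 6 peak (1.97, interval 1.62 to 2.41) and highest at the chromosome X peak (3.83, interval 3.03 to 4.88).

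The highest ratio of all, 4.70 (interval 3.17 to 7.15), was found at chr17:28173428-28174120, with 199 tags and folds of 3.44 and 16.15. The only dense peak removed by input was chr11:51432062-51432697, with 72 tags and a fold of 7.21 against DLD-1/Mock. Its ratio was at most 0.964, which is close to 1. The widest peak, chr17:55269373-55274473, was of another kind. It spread 268 tags over 5101 bp (5.25 per 100 bp), was called against both controls with folds of 6.84 and 7.12, and had a ratio of 1.04 (interval 0.798 to 1.36). These 3 peaks were singled out after their values had been seen.

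**Figure D3:**
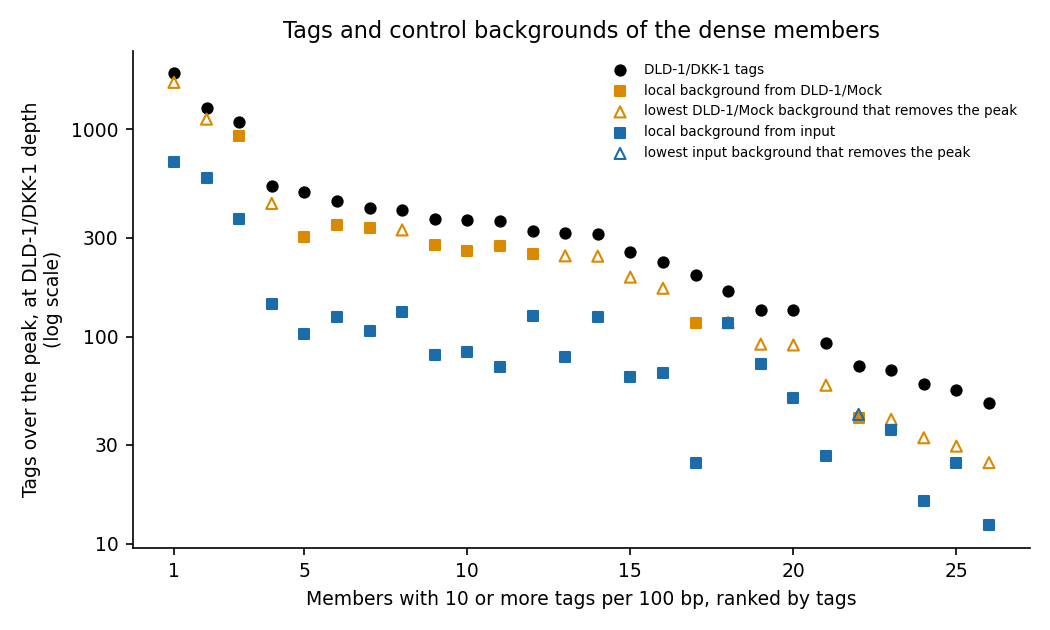
The 26 peaks with 10 or more tags per 100 bp are ranked by tags on the x axis, and the y axis (log scale) gives tags over the peak at the depth of the DLD-1/DKK-1 library. Black circles are DLD-1/DKK-1 tags, squares the local background from each control, and open triangles the lowest background at which the peak would be removed, drawn where a control removed it. In the 9 peaks with both squares the mock background lies between the DLD-1/DKK-1 tags and the input background, 1.97 to 4.70 times above the latter.

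The peaks were unevenly spread over the chromosomes. Chromosome 12 held 40 of its 375 peaks in this class, chromosome 1 held 21 of 465 and chromosome 2 held 18 of 328. Chromosomes 14, 17 and 6 held 12 each, chromosome 16 held 10, and chromosome 13 held 0 of 164 peaks. The control that removed a tag-rich peak differed between chromosomes, in small numbers. The same shares over all peaks of each chromosome are not given, so these counts do not show a trait of tag-rich peaks. The 5 peaks of chromosome 15 removed by input form 1 group. All 4 peaks of chromosome 21 and 10 of the 18 of chromosome 2 were removed by mock, and 5 of the 7 of chromosome 15 by input, whereas 23 of the 40 of chromosome 12 and 8 of the 12 of chromosome 17 passed against both.

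**Figure D4:**
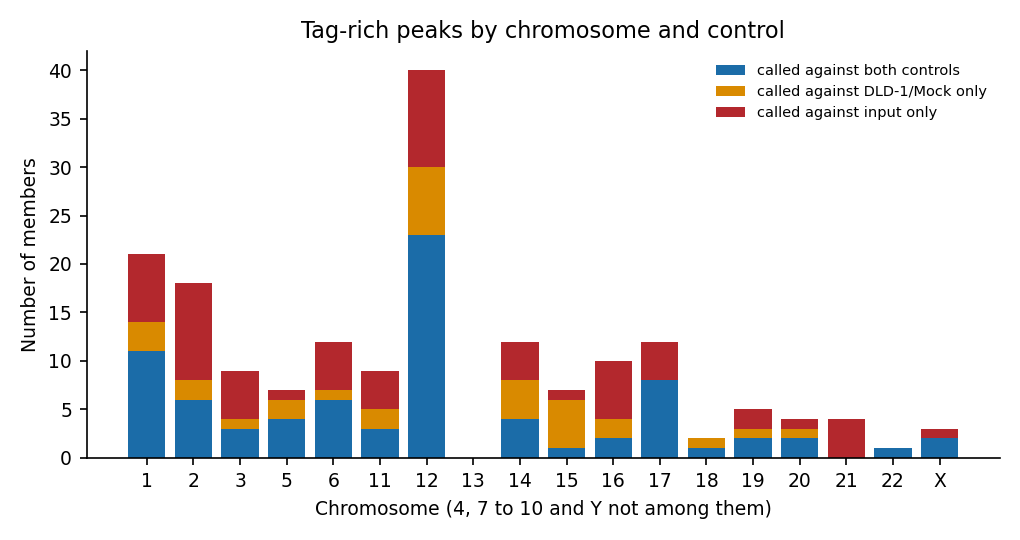
Bars give the number of tag-rich peaks on each chromosome (y axis, from 0), stacked by the control against which they were called. Chromosome 12 stands highest with 40, chromosome 13 has 0, and the bar of chromosome 21 holds only peaks called against input.

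Tag-rich peaks lay close together. Another tag-rich peak was found within 1 Mb of 83 of the 176 (47.2%, 95% Wilson interval 39.9% to 54.5%), whereas 581 of the 3580 peaks under 30 tags (16.2%) had a tag-rich peak within that distance. Linking peaks within 1 Mb gave 22 groups, 12 of them pairs and 10 with 3 peaks or more, which took up 59 peaks, and 93 peaks lay alone. In 12 neighbouring pairs the gap was within 1 kb, and the smallest was 13 bp, and whether such neighbours belong to 1 enriched stretch was not tested. Peaks of the densest class had a close neighbour least often. A neighbour within 1 Mb was found for 67 of the 128 peaks under 5 tags per 100 bp (52.3%), for 10 of the 22 between 5 and 10 (45.5%) and for 6 of the 26 at 10 or more (23.1%). A single group of 24 peaks on chromosome 12, at a median of 3.89 tags per 100 bp, adds to the first of these shares. Without that group the share over all densities was 38.8%, below the Wilson interval given above, and shares by density were not computed. That interval takes peaks as independent, which neighbours are not.

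The largest group lay at chr12:64265319-64664571, where 24 tag-rich peaks stood within 399 kb, or 60.1 per Mb. They held 1287 tags, each between 30 and 140 (median 40.5), at 3.18 to 6.61 tags per 100 bp and widths of 675 to 2780 bp. Another 14 peaks of fewer tags lay among them. Of the 24, 16 were called against both controls, 5 were removed by input and 3 by mock. The ratio of the control backgrounds in the 16 was 0.736 to 1.49 (median 0.928), and fold enrichment ranged from 5.14 to 11.8 against DLD-1/Mock and from 5.35 to 12.46 against input. Median backgrounds there were 1.62 (DLD-1/Mock) and 1.73 (input) times the genome-wide value. Both lay below the medians over all tag-rich peaks, 1.75 and 2.03. The group was therefore an array of broad peaks of moderate density that neither control removed as a whole. It fell into 2 blocks when peaks were linked within 100 kb, chr12:64265319-64349358 with 13 peaks and 698 tags, and chr12:64502399-64664571 with 11 peaks and 589 tags. The specific site chr12:64323027-64324433 lay in the first block, 13 bp from a peak of 113 tags.

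The peak with most tags in the group, chr12:64515020-64517799, held 140 tags over 2780 bp with folds of 8.62 and 7.19. Next came chr12:64506412-64509179 with 124 tags and folds of 5.14 and 7.7, where the ratio was 1.49 (interval 1.03 to 2.15). It was the only peak under 5 tags per 100 bp with an interval above 1.

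**Figure D5:**
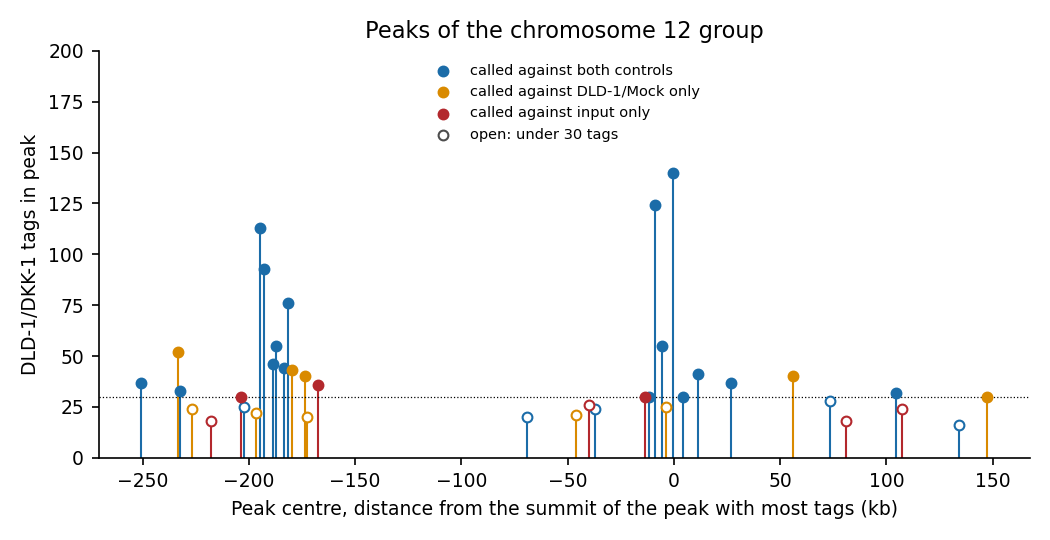
The x axis gives the distance in kb of each peak's centre from the summit of the peak with most tags in the chromosome 12 group, and the y axis its DLD-1/DKK-1 tags (from 0). Filled circles are the 24 tag-rich peaks and open circles the 14 peaks under 30 tags, coloured by control, and the dotted line marks 30 tags. The peaks form 2 blocks, one with up to 113 tags and one with up to 140.

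The other groups with 3 peaks or more differed in which control removed them. At chr1:94416198-94484733, 6 peaks with 31 to 67 tags were equally divided, 2 called against both, 2 removed by mock and 2 by input. The ratio in the former pair was 0.502 and 0.749, and the lower value, at chr1:94472532-94474279 (67 tags, folds 8.89 and 4.34), was the only one of the 79 whose interval (0.281 to 0.867) lay below 1. This was the lowest ratio of the 79, and its interval was not adjusted for that choice, so a higher input background there was not established. At chr14:51083543-51099820, 4 peaks with 32 to 46 tags stood within 16.3 kb, of which 2 were called against both and 2 were removed by mock. The 3 peaks at chr2:36628812-36659838 (37 to 58 tags) and the 3 at chr12:74705026-74718707 (33 to 124 tags) gave the same outcome as each other, with 2 called against both and 1 removed by mock.

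In 5 groups no peak passed against both controls. The 4 peaks at chr2:132728054-132755830 were all removed by mock and held 1502 tags, 1263 of them in the peak described above, with 43, 93 and 103 in the others. The 3 peaks at chr6:26163241-26314708 (44, 62 and 71 tags) were also all removed by mock, at only 3.42 to 4.38 tags per 100 bp, where the mock background had to be at least 1.48 to 1.76 times that of input. Of the 3 peaks at chr3:75800859-75850604 (41 to 42 tags), 2 were removed by mock and 1 by input. The other two groups, on chromosomes 15 and 16, are described with the stretches that hold no peak.

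Closeness to centromeres was not measured, since hg18 annotation was not used, and distances to stretches without any peak are given instead. The longest such stretch of a chromosome may hold its centromere or a gap in the assembly, but this was not shown. It lay at chr11:3188781-7420838 and chrX:139612002-144651545, for example. The shares below therefore do not describe closeness to centromeres. Within 1 Mb of the longest stretch lay 11 of the 176 peaks (6.25%, 95% Wilson interval 3.53% to 10.8%) and 83 of the 3580 peaks under 30 tags (2.32%). Within 5 Mb the numbers were 31 (17.6%) and 267 (7.46%). When all 75 stretches of at least 3 Mb were taken, 24 tag-rich peaks (13.6%) and 337 others (9.41%) lay within 1 Mb. Of these 24, 12 were removed by mock, 8 by input and 4 passed against both. Most tag-rich peaks, dense ones included, thus lay away from the long stretches. Among the 26 dense peaks, 5 (19.2%) were within 1 Mb of a stretch of at least 3 Mb. Repeat annotation was not analysed here, and no sequence of the peaks is shown for want of the hg18 genome.

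The clearest case of a peak at an edge was on chromosome 16. The 4 peaks at chr16:32452826-33873493 were all removed by mock, held 2094 tags, and ended directly before a peak-free stretch of 12.2 Mb. The peak with 1859 tags lay 1508 bp from its edge, and its neighbour, chr16:33872003-33873493, with 165 tags, bordered it. On chromosome 19, chr19:23975162-23977473 held 313 tags (13.5 per 100 bp), bordered a stretch of 9.55 Mb, and was removed by mock with a fold of 13.57 against input. On chromosome 21, chr21:10166205-10167294 (59 tags) was the first peak after a stretch of 10.2 Mb from the chromosome start and was removed by mock too. Each of these peaks thus passed against input and not against mock. Other peaks at the edge of a stretch of at least 3 Mb had mixed outcomes. The dense peak of chromosome 11 that input removed, chr11:51432062-51432697, bordered a stretch of 3.87 Mb. On chromosome 2, chr2:38826296-38827708 (57 tags) and chr2:36628812-36630020 (47 tags) bordered stretches of 3.72 and 4.16 Mb and passed against both controls. On chromosome 21, chr21:14378985-14379403 (32 tags) and chr21:26149714-26150137 (59 tags) bordered stretches of 4.21 and 3.33 Mb and were removed by mock.

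On chromosome 15 the opposite was found. The 5 peaks at chr15:18854630-19934286 held 30 to 34 tags each and were all removed by input. The nearest of them lay 172781 bp from the stretch of 18.7 Mb at the chromosome start. Folds against DLD-1/Mock were 4.77 to 8.45, and the ratio of backgrounds was at most 0.557 to 0.951. Of the other 8 peaks in this span, 7 were likewise removed by input and 1 passed against both. Near the stretch of 6.43 Mb on chromosome 6, chr6:57413177-57414428 (44 tags) passed against both and chr6:57553952-57555037 (45 tags) was removed by input.

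Genes at the tag-rich peaks could hardly be described, since the authors' list pairs genes with specific sites alone and 2 of the 176 peaks are specific sites, both without a gene. A single peak, chr12:76871804-76872590, with 32 tags and called against both controls, lay within a transcript of that list, NAV3 (NM_014903, chr12:76749200-77130920, plus strand, 39 exons), which encodes a neuron navigator protein. It was intronic, 11550 bp from the nearest exon and 122997 bp from the transcript start. This peak was named after its values had been seen. Genes outside that list were not analysed here.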

How the data were processed

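The authors aligned reads of 40 bp to hg18 with ELANDv2 in CASAVA 1.7, kept unique alignments and called peaks on single libraries with MACS 1.4.0beta at a P value cut-off of 1e-05, with a fragment size of 150 bp, an effective genome size of 2700000000 bp and at most 2 tags per position. Per the file headers, tags per peak are counts without normalization, the score is a Poisson P value as −log10, multiplied by 10, and fold enrichment is the ratio of the summit to local background. FDR values are deposited as a percent, as written by MACS. The deposited list of specific sites was used for site membership and transcripts only.

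Lists were joined on identical start and end with Python 3.11.15, using numpy 2.4.6, scipy 1.17.1, matplotlib 3.10.9 for plots and pandas 2.3.3. The local background was the Poisson mean at which the tags of a peak give its score. As a check, the summit height implied by fold and background was compared between the 2 lists, and it differed by less than 2% at 78 of the 79 peaks in both. An error common to both lists would pass this check. A stricter one, that the height be whole within 0.1, was met at 23 of the 79. Among peaks under 1000 bp and 30 tags it was met by 91.1% (DLD-1/Mock list) and 91.0% (input list). Without the members that did not meet it the median ratio was 1.06. For a peak absent from a list, the background had to exceed the mean that gives a score of 50, which bounds the ratio. Ratio intervals are exact binomial, tag intervals Poisson and share intervals Wilson, all at 95% and for counting error only. Ratio intervals take each background as a count over the peak, although MACS can take it from a 1 kb or 10 kb window. Positions count from 1. The functions were tested on simulated data, with scores made by the same Poisson formula. That test does not show that MACS used this formula. The simulated backgrounds were also lower, relative to tags, than most of the mock backgrounds estimated at dense peaks. Genome-wide background was 1.18 tags per 150 bp, which with 1 library per condition sets the precision, and no test between conditions was made.

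The peaks and limits were chosen with earlier results of these data known. Peaks described singly are the 12 with the most tags, those in groups of 3 or more, those with 30 or 29 tags and any with a gene in the authors' list, and others are named as chosen after their values were seen. The members near stretch edges were also chosen so.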

Additional observations from a re-analysis of the deposited data

How the results depend on the processing

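No paired analysis was possible because the study has 1 library for each condition. Of 63 alternative values, 45 stayed near the reported value (a count within 1.5 times, a share inside its Wilson interval, a median inside the quartiles) and 18 moved, none of them a tested call. The number of tag-rich peaks became 698 at 20 tags, 350 at 25, 89 at 40, 56 at 50, 111 in the list against DLD-1/Mock alone and 59 at a score of at least 100. A fold enrichment of 10 in both lists gave 1.14% of the 176 peaks as called against both controls. At a minimum of 50 tags the median density was 7.80 tags per 100 bp, and the median width was 674.5 bp at a minimum of 20 tags and 1178 bp at 50. The share with another tag-rich peak nearby was 36.9% within 100 kb, 68.8% within 5 Mb, 63.5% at a minimum of 20 tags, 37.5% at 50 and 38.8% without the chromosome 12 group. The share near a stretch was 17.6% within 5 Mb of the longest and 13.6% within 1 Mb of any of at least 3 Mb. The median background ratio was 3.06 in peaks with 10 or more tags per 100 bp. The chromosome 12 group, stretches of at least 3 Mb and the dense class were alternatives chosen after seeing the data. Leaving out each of 17 chromosomes in turn gave a share called against both controls of 41.2% to 46.4%.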
